A study of Mus musculus with 9 samples.

Results

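The genes described here are 43 mouse genes of the interferon response, taken as the rows of the deposited tables whose Ensembl identifier carries 1 of 43 fixed gene symbols. All 43 were found among the 54281 genes of the files, and 42 of them were among the 23834 genes that passed the filter on low counts. Oas2 was the member that did not pass. Interferons are secreted signalling proteins made when cells sense foreign or misplaced nucleic acid. They bind cell-surface receptors and act through Janus kinases on transcription factors such as Stat2 and Irf9, which act at the interferon-stimulated response element in the promoters of responding genes. The gamma-activated site is the element best known from the response to interferon gamma. The responding genes encode nucleic acid sensors, the transcription factors of the pathway itself, and proteins that block viral replication or modify other proteins. Mammary epithelial cells carry the receptors and can run this programme themselves.

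The genes were measured by bulk RNA sequencing in Comma-1D, a mouse mammary epithelial cell line, in 9 libraries. Cells were sorted on the surface proteins Sca-1 and EpCAM into 3 populations, here named as in the sample titles. B cells were EpCAM low and Sca-1 high, L cells were the reverse, and bi cells were high for both proteins. Each population was sampled in 3 arms, control cells, cells transduced with an activated MYC oncogene, and cells transduced with an activated Her2 oncogene, with 1 library for each population and arm. The labels do not say whether the arms were separate cultures or transductions, whether the controls carried a vector, or which of 2 RNA isolation kits served which sample, so a p-value measures the spread between these libraries only.

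Totals ran from 46.9 to 98.9 M reads per library, so that 1 CPM (the usual unit of a gene's read count relative to its library's total, here scaled for composition) stood for 44 to 94 reads, and for a gene at 1 CPM counting error alone gives a 95% Poisson interval of 0.731 to 1.35 CPM in the shallowest library and 0.810 to 1.23 CPM in the deepest. In every population Myc peaked in the MYC library, and Erbb2, the gene of Her2, in the Her2 library. The epithelial keratin genes Krt5 and Krt14 were at 569 CPM or more in every library, while Epcam and Cdh1 were at 2.02 CPM or less in the 3 B libraries and at 204 CPM or more in the other 6. Ly6a, which encodes the sort marker Sca-1, is itself known as an interferon-inducible gene and is not among the members. In bulk RNA fewer cells of a type and less RNA per cell cannot be told apart, and this holds for every level below.

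Promoter sequences were looked at first, because the members are grouped by a response that is read out at the promoter. RefSeq windows on the GRCm38.p6 build, from 250 bases before to 50 after the start, were matched for 33 of the 43 members. The core of the interferon-stimulated response element, searched as GAAA, 2 bases of any kind and GAAA on both strands (overlapping matches counted), was present in 18 of the 33, or 54.5%, against 1079 of 27025 genes with a window, or 3.99%. The gamma-activated site, searched as TTCNNNGAA, which reads the same on both strands, was present in 8 of 33 members (24.2%) and in 9.55% of all genes, and both motifs were present in 5 members (15.2%) and in 0.614% of all genes. A match is a description of letters, not of a bound site. The stretches below are the 160 bases before the RefSeq start of 9 members with a core match, chosen to show its spacing and repeats, and of 2 members without one that were nonetheless among the members with the widest range of levels. Each runs 5′ to 3′ in the direction of the gene, and capitals mark the core on either strand.

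Isg15: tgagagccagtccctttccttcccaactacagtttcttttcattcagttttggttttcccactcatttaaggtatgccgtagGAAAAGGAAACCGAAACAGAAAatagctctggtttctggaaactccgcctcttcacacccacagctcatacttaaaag
Ifit1: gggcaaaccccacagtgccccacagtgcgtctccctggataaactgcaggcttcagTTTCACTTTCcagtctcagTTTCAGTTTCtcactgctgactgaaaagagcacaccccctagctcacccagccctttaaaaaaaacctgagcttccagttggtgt
Ifit3: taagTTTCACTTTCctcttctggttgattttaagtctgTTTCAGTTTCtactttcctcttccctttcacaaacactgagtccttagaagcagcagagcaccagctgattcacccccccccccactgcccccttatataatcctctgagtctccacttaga
Ifit3b: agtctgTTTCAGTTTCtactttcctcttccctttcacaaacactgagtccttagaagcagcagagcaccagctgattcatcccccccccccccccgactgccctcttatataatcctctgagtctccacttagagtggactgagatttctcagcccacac
Oas1a: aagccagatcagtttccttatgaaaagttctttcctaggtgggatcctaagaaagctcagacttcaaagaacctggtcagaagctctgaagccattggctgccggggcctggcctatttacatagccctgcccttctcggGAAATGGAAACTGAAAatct
Rsad2: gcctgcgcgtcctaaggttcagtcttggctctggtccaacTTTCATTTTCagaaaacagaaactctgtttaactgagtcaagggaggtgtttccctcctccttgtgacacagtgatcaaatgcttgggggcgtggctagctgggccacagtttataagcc
Gbp3: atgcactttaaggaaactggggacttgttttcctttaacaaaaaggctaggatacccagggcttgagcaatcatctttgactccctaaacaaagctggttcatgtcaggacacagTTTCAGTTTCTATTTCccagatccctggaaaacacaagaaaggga
Gbp7: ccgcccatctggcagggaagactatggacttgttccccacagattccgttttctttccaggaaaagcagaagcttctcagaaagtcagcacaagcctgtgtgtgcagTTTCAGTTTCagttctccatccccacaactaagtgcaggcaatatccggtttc
Igtp: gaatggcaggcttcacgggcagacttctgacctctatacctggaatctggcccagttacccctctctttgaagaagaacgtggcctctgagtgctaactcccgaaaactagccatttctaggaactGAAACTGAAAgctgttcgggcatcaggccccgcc
Oasl2: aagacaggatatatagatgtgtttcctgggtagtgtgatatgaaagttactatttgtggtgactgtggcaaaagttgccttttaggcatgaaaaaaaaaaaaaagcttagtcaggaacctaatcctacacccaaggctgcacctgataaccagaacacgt
Cmpk2: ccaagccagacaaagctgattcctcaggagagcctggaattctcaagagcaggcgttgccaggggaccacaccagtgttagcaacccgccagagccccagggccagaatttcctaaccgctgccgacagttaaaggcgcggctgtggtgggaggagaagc

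The stretches lie as follows: Isg15 at chr4:156200819-156200978 (minus strand), Ifit1 at chr19:34640729-34640888 (plus strand), Ifit3 at chr19:34583369-34583528 (plus strand), Ifit3b at chr19:34607797-34607956 (plus strand), Oas1a at chr5:120907526-120907685 (minus strand), Rsad2 at chr12:26456453-26456612 (minus strand). The others are Gbp3 at chr3:142559884-142560043 (plus strand), Gbp7 at chr3:142530176-142530335 (plus strand), Igtp at chr11:58199396-58199555 (plus strand), Oasl2 at chr5:114896774-114896933 (plus strand) and Cmpk2 at chr12:26469055-26469214 (plus strand). Isg15 carried 3 overlapping matches, which begin 78 to 66 bases before the start. Ifit1 carried matches at 104 and 85 bases before the start and Ifit3 at 156 and 122. The neighbouring near-copy Ifit3b carried them at 188 and 154, of which the farther lies outside the printed stretch. Oas1a and Gbp3 each carried 2 overlapping matches close to the start, at 20 and 14 bases and at 45 and 39 bases. Rsad2 (120 bases), Gbp7 (53 bases) and Igtp (34 bases) carried 1 each.

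Across the 9 libraries most of the members reached their highest level in 1 library, that of L cells transduced with MYC. This was so for 33 of the 42 tested members, against 15.2% of all tested genes, and for Oas2 as well. In 21 of the 42 the L MYC library stood at least 2-fold above every other library, which 1.17% of tested genes did, and in each of the other 8 libraries no member stood 2-fold above the rest, where 0.0126% to 1.59% of tested genes did. Within L, MYC against control gave a median log2 ratio of 1.88 over the 42 members and of 0.04 over all tested genes. The lowest level fell in bi Her2 for 14 members (12.8% of all tested genes), in B Her2 for 9 (14.3%) and in L Her2 for 7 (13.5%). Counts were scaled for library composition, and the 9 libraries have no replicate of a population and arm, so the height of the L MYC library has no replicate of its own.

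**Figure D1:**
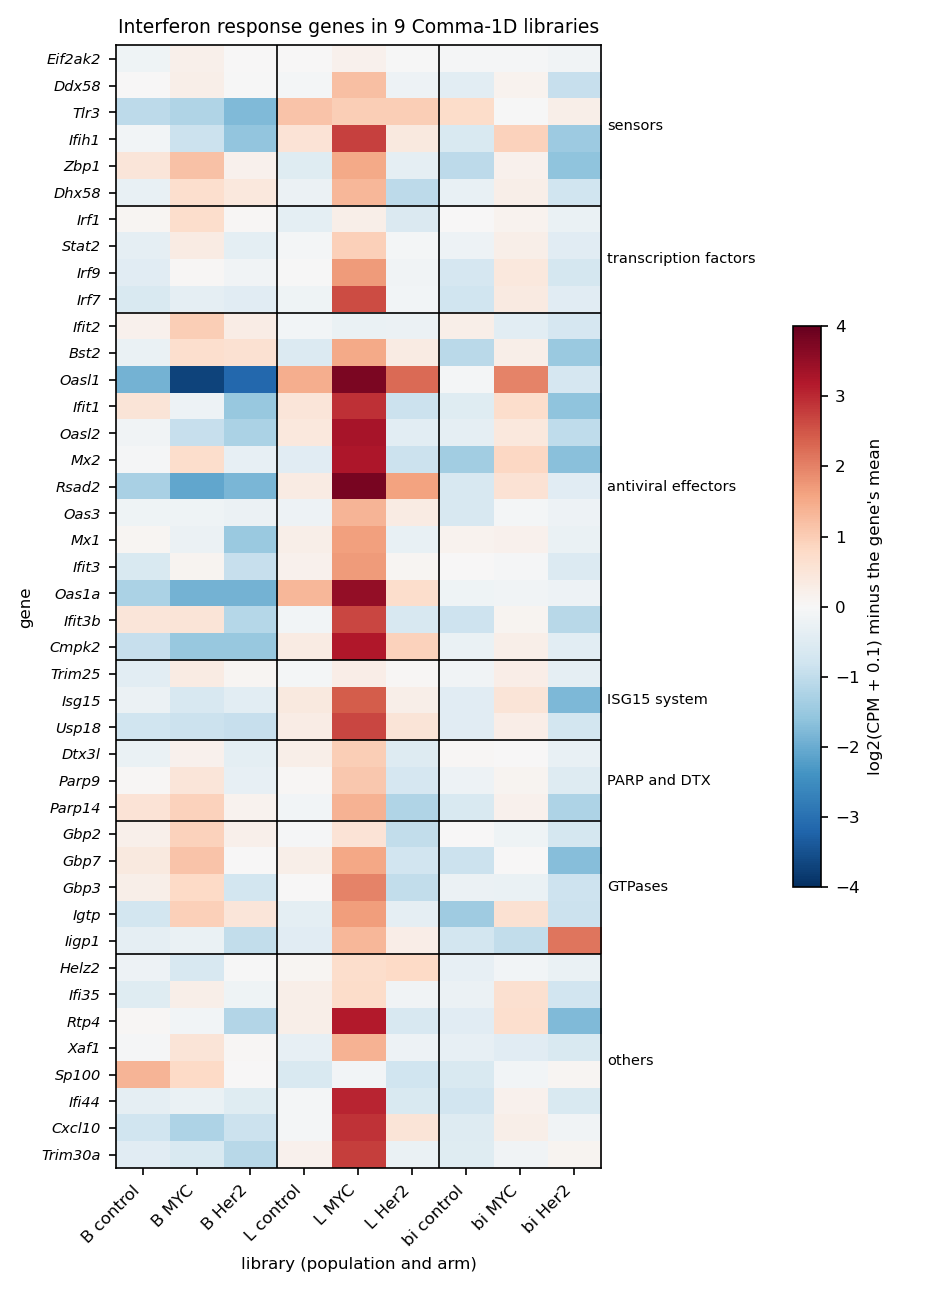
Level of the 42 tested members (rows, by role) in the 9 libraries (columns, by population and arm), as log2(CPM + 0.1) minus the gene's mean over the libraries, with red above and blue below the mean. The L MYC column is the reddest for 33 genes. Ifit2, Irf1, Trim25, Gbp2 and Eif2ak2 peak in B MYC, and Tlr3, Sp100, Helz2 and Iigp1 show other patterns.

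The TPM scale takes transcript length into account and so lets genes be compared. On it the most abundant members by their mean over the 9 libraries were Irf1 at 22.0 TPM, Trim25 at 15.7, Eif2ak2 at 13.3 and Ddx58 at 13.2. The least abundant were Oas2 at 0.0390 TPM, Trim30a at 0.109 and Iigp1 at 0.138. Of the 4 most abundant, Irf1 was highest in B MYC and Ddx58 in L MYC on both scales. Trim25 and Eif2ak2 were highest in B MYC on the CPM scale but in L MYC on the TPM scale, at 20.2 and 16 TPM. The deposited lengths of some members are short, 180 to 241 bases for Irf7 and 200 to 210 for Irf1. The TPM of Irf1 did not follow that length, with means of 39.8 CPM and 22.0 TPM. Ifit1, with a deposited length of 2656 bases, had means of 3.76 CPM and 1.44 TPM.

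Among the sensors, Ifih1, Zbp1, Dhx58 and Ddx58 were highest in L MYC on the CPM scale and Tlr3 and Eif2ak2 were not. Ifih1 encodes MDA5, a cytoplasmic sensor of long double-stranded RNA, and had 8.74, 5.19 and 3.09 CPM in the B control, MYC and Her2 libraries, 13.8, 63.8 and 12.4 CPM in L and 6.22, 17.8 and 3.39 CPM in bi. The L MYC value was the highest by far, with bi MYC next, and both exceeded every control. Zbp1, a sensor of left-handed nucleic acid, had 2.5, 4.09 and 1.99 CPM in the B control, MYC and Her2 libraries, 1.25, 5.2 and 1.36 CPM in L and 0.811, 1.99 and 0.515 CPM in bi. Its 3 MYC libraries each exceeded the control of the same population, with B MYC nearly as high as L MYC.

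Dhx58, which encodes the RIG-I relative LGP2, had 1.49, 3.04 and 2.51 CPM in the B control, MYC and Her2 libraries, 1.59, 4.82 and 0.85 CPM in L and 1.51, 2.23 and 1.04 CPM in bi. Ddx58, which encodes the RNA sensor RIG-I itself, had 34, 39.96 and 33.5 CPM in the B control, MYC and Her2 libraries, 31.9, 77.9 and 29.3 CPM in L and 25.3, 37 and 17.9 CPM in bi. In both genes each MYC library lay above all 3 controls on the CPM scale, and the MYC and Her2 libraries of Ddx58 did not overlap. Tlr3, the endosomal receptor for double-stranded RNA, had 7.69, 6.88 and 4.64 CPM in the B control, MYC and Her2 libraries, 35.5, 31.9 and 32.1 CPM in L and 27, 15.9 and 19 CPM in bi. It was low in all 3 B libraries and high in all 3 L libraries whatever the arm, with bi between them. Eif2ak2, the kinase PKR that halts translation on double-stranded RNA, had 40.1, 52.8 and 46.4 CPM in the B control, MYC and Her2 libraries, 46, 50.8 and 45 CPM in L and 44, 44.1 and 41.3 CPM in bi. Its highest and lowest libraries differed by 0.40 on the log2 scale, the narrowest span among the 43 members.

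The transcription factors of the pathway differed in how far they followed the pattern. Irf7, which amplifies interferon production, had 1.51, 1.81 and 1.67 CPM in the B control, MYC and Her2 libraries, 2.05, 14.9 and 2.14 CPM in L and 1.29, 3 and 1.66 CPM in bi. The L MYC value stood 4.96-fold above the next, and the other 8 libraries lay between 1.29 and 3 CPM. Irf9, which binds DNA in complex with Stat2, had 5.59, 7.96 and 6.98 CPM in the B control, MYC and Her2 libraries, 7.61, 25.4 and 7.09 CPM in L and 4.82, 10.3 and 4.76 CPM in bi. Each MYC library of Irf9 was above every control and every Her2 library on the CPM scale. Stat2 had 12, 19.5 and 11.8 CPM in the B control, MYC and Her2 libraries, 14.5, 29.8 and 14.6 CPM in L and 13.4, 18.2 and 11.3 CPM in bi. Its MYC libraries lay above the other 6 in the same way, over a narrower span. Irf1, a factor shared by the type I and type II interferon responses, had 41.1, 62.8 and 39.99 CPM in the B control, MYC and Her2 libraries, 29.7, 45.5 and 25.7 CPM in L and 38.7, 42.5 and 32.4 CPM in bi. Here B MYC was highest, and on the CPM scale all 3 MYC libraries exceeded all controls and all Her2 libraries.

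The antiviral effectors held the widest ranges. Mx2, a dynamin-like GTPase that blocks viruses, had 0.479, 0.892 and 0.383 CPM in the B control, MYC and Her2 libraries, 0.338, 5.56 and 0.235 CPM in L and 0.128, 0.966 and 0.0916 CPM in bi. L MYC was highest and bi MYC and B MYC followed, with no overlap between the MYC libraries and the other 6. Ifit1, a binder of foreign 5′ RNA ends, had 3.29, 1.94 and 0.728 CPM in the B control, MYC and Her2 libraries, 3.2, 17.5 and 1.2 CPM in L and 1.56, 3.73 and 0.676 CPM in bi. In Ifit1 the 3 Her2 libraries lay below all 3 controls, and B MYC lay below its own control. Oasl2, a relative of the oligoadenylate synthetases, had 1.6, 0.869 and 0.671 CPM in the B control, MYC and Her2 libraries, 2.37, 18 and 1.28 CPM in L and 1.33, 2.4 and 0.825 CPM in bi. L MYC was again far above the rest, and in B the order was control, MYC, Her2 from high to low.

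Oasl1, a relative of the same enzymes that is known to hold back Irf7 translation, had 0.408, 0.0457 and 0.115 CPM in the B control, MYC and Her2 libraries, 5.12, 25.6 and 8.96 CPM in L and 1.7, 7.37 and 1.08 CPM in bi. It combined a population pattern, with every L and bi library above every B library, with high values in L MYC, L Her2 and bi MYC. Bst2, the membrane tether of budding virus, had 4.76, 9.19 and 8.74 CPM in the B control, MYC and Her2 libraries, 3.86, 16.4 and 7.15 CPM in L and 2.68, 6.8 and 1.97 CPM in bi. Each MYC library of Bst2 lay above all 3 controls, while B Her2 and L Her2 also exceeded their controls. Ifit2, another binder of foreign RNA, had 21.7, 38.2 and 23.5 CPM in the B control, MYC and Her2 libraries, 17.5, 16 and 16.3 CPM in L and 22.5, 14.1 and 12 CPM in bi. Ifit2 was the effector that was not highest in L MYC. It peaked in B MYC, and each of its B libraries exceeded every L library.

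Effectors with fewer reads are given where a comparison called them, or by range. Rsad2, which encodes viperin, an enzyme making a chain-terminating nucleotide, had 0.071, 0 and 0.0192 CPM in the B control, MYC and Her2 libraries, 0.429, 5.71 and 1.17 CPM in L and 0.171, 0.532 and 0.206 CPM in bi, with 0 to 4 reads in each B library. Cmpk2, its neighbour on chromosome 12 and a mitochondrial nucleotide kinase, had 0.0533, 0 and 0 CPM in the B control, MYC and Her2 libraries, 0.26, 2.55 and 0.44 CPM in L and 0.139, 0.237 and 0.115 CPM in bi, with 3, 0 and 0 reads in B. Both were nearly absent in B and highest in L MYC. A count of 0 allows up to 3 reads, or 0.0686 CPM in B MYC and 0.0575 CPM in B Her2. Oas1a, a synthetase of the RNase L pathway, had 0.0533, 0 and 0 CPM in the B control, MYC and Her2 libraries, 0.832, 4.1 and 0.498 CPM in L and 0.224, 0.237 and 0.218 CPM in bi. It showed the same near absence in B, but 68.8% of its 31-base words also occur in transcripts of other genes, mostly Oas1g, so its reads may be split among copies.

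Ifit3 had 0.408, 0.732 and 0.307 CPM in the B control, MYC and Her2 libraries, 0.767, 2.41 and 0.704 CPM in L and 0.683, 0.65 and 0.424 CPM in bi. Ifit3b had 0.444, 0.457 and 0.0767 CPM in the B control, MYC and Her2 libraries, 0.26, 2.35 and 0.147 CPM in L and 0.117, 0.315 and 0.0802 CPM in bi. These near-copies, at chr19:34583531-34588731 and chr19:34607970-34613401 on the plus strand in GENCODE M21, share 31-base sequence words with other transcripts, mostly each other: 61.8% of those of Ifit3 and 55.2% of those of Ifit3b. Their split of reads is uncertain, and both peaked in L MYC. Mx1 ranged from 0.192 CPM in B Her2 to 2.45 in L MYC, and Oas3 from 0.501 CPM in the bi control to 2.26 in L MYC. Oas2 had 78 reads in all, 73 of them in L MYC.

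**Figure D2:**
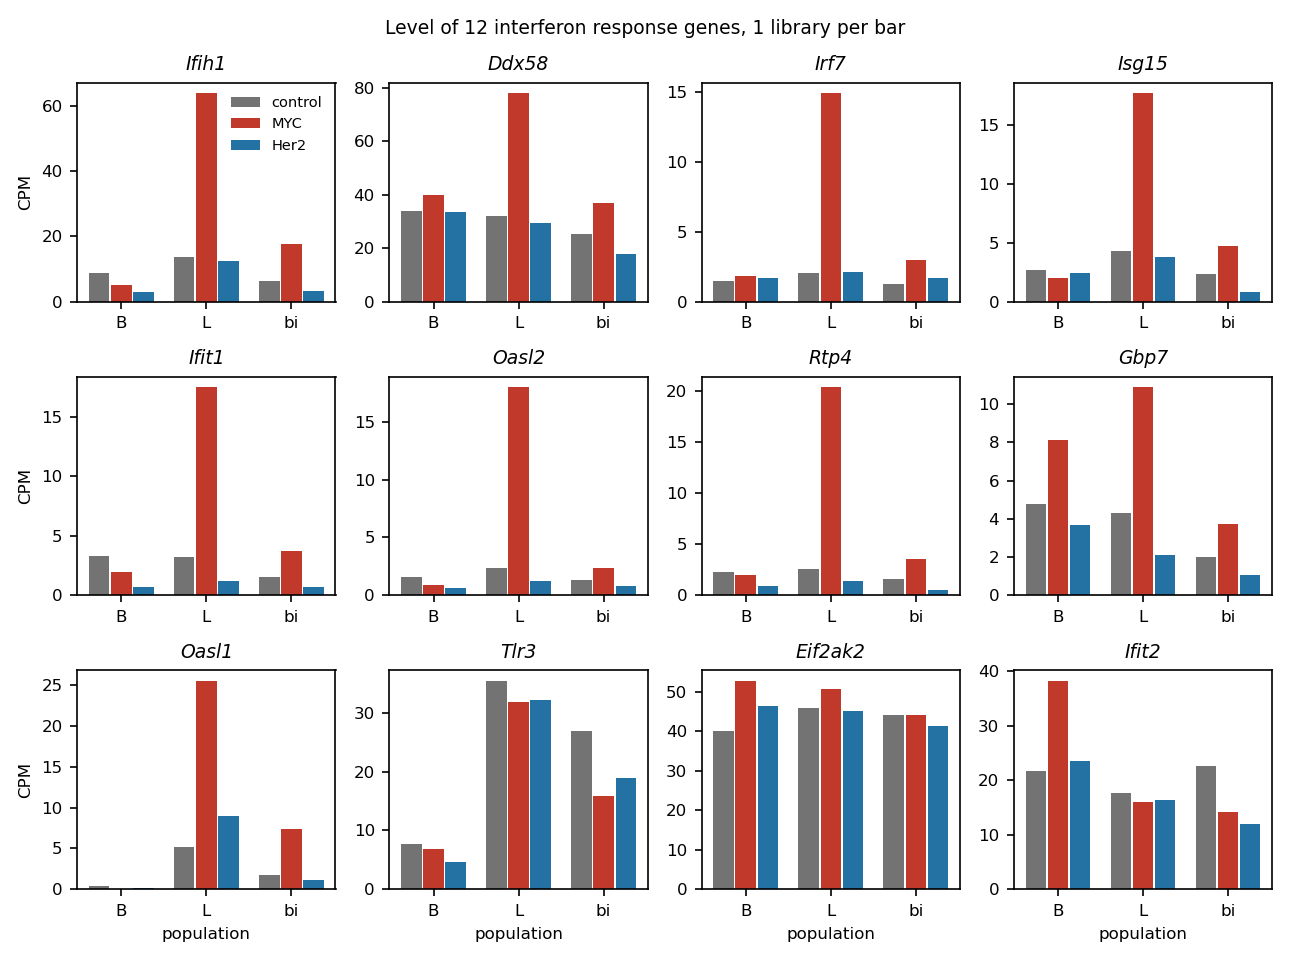
CPM (vertical axis, linear from 0, its own scale in each panel) of 12 members in the B, L and bi populations, with control in grey, MYC in red and Her2 in blue and 1 library per bar. The L MYC bar is the tallest in the first 9 panels, Tlr3 separates B from L and bi in every arm, and Ifit2 peaks in B MYC.

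Of the ISG15 system, Isg15 and Usp18 followed the L MYC pattern and Trim25, on the CPM scale, did not. Isg15, a ubiquitin-like protein joined to other proteins during the response, had 2.72, 2.03 and 2.4 CPM in the B control, MYC and Her2 libraries, 4.26, 17.7 and 3.78 CPM in L and 2.31, 4.71 and 0.859 CPM in bi. L MYC was the highest, and in B the MYC library lay below its control. Usp18, the protease that removes Isg15 and damps the interferon receptor, had 0.195, 0.183 and 0.173 CPM in the B control, MYC and Her2 libraries, 0.533, 3.2 and 0.63 CPM in L and 0.277, 0.512 and 0.206 CPM in bi. All 3 B libraries lay below all L and bi libraries. Trim25, a ubiquitin ligase that acts on RIG-I, had 64.7, 109.8 and 92.5 CPM in the B control, MYC and Her2 libraries, 83.6, 105 and 90.03 CPM in L and 79.2, 105 and 68.2 CPM in bi. Its 3 MYC libraries were within a few CPM of each other and above the other 6.

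Parp9, Parp14 and Dtx3l lie close together on chromosome 16 (chr16:35938470-35972605, chr16:35832874-35871544 and chr16:35926511-35939151 in GENCODE M21) and encode ADP-ribosyltransferases and a ubiquitin ligase that works with Parp9. Parp14 had 24.4, 31.8 and 18.3 CPM in the B control, MYC and Her2 libraries, 15.6, 44.2 and 7.2 CPM in L and 10.9, 18.8 and 7.12 CPM in bi. Its MYC library was the highest and its Her2 library the lowest of each population. Parp9 had 21, 28.9 and 16.4 CPM in the B control, MYC and Her2 libraries, 20.9, 42.9 and 12.7 CPM in L and 17.9, 21.9 and 14.2 CPM in bi. The order MYC, control, Her2 held in every population on the CPM scale. Dtx3l had 24.9, 33.9 and 22.5 CPM in the B control, MYC and Her2 libraries, 35.4, 59.7 and 21 CPM in L and 30.6, 30.5 and 24.1 CPM in bi. In Dtx3l the bi MYC library lay just under the bi control. Parp9 and Dtx3l overlap head to head, and 8.56% and 9.68% of their words occur on the opposite strand of other transcripts.

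The interferon-inducible GTPases act on the membranes around pathogens. Gbp3 had 3.46, 5.21 and 1.73 CPM in the B control, MYC and Her2 libraries, 2.99, 11.9 and 1.42 CPM in L and 2.5, 2.42 and 1.59 CPM in bi. L MYC was highest, and all 3 Her2 libraries lay below all others. Gbp7 had 4.78, 8.12 and 3.68 CPM in the B control, MYC and Her2 libraries, 4.32, 10.9 and 2.11 CPM in L and 1.98, 3.71 and 1.05 CPM in bi. MYC was highest and Her2 lowest in each population. Igtp, of the immunity-related GTPase family, had 0.994, 3.43 and 2.45 CPM in the B control, MYC and Her2 libraries, 1.3, 5.75 and 1.32 CPM in L and 0.576, 2.68 and 0.905 CPM in bi. The 3 MYC libraries of Igtp were above the other 6.

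Gbp2 had 15.1, 25 and 15.4 CPM in the B control, MYC and Her2 libraries, 12.8, 19.5 and 6.68 CPM in L and 13.5, 11.8 and 8.18 CPM in bi. It peaked in B MYC, and its bi MYC library lay below the bi control. Iigp1 ranged from 0.0575 CPM in B Her2 to 1.28 in bi Her2, where 112 of its reads lay, against 54 reads in L MYC and 19 or fewer in each other library. Iigp1 was thus highest in bi Her2, and the L MYC library came next.

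Of the members with other roles, Rtp4, a chaperone of membrane receptors, had 2.26, 2.01 and 0.92 CPM in the B control, MYC and Her2 libraries, 2.59, 20.4 and 1.36 CPM in L and 1.58, 3.55 and 0.573 CPM in bi. Ifi44, a cytoplasmic antiviral protein, had 0.551, 0.594 and 0.498 CPM in the B control, MYC and Her2 libraries, 0.702, 6.81 and 0.454 CPM in L and 0.395, 0.848 and 0.447 CPM in bi. The L MYC level was 5.74-fold that of the next library in Rtp4 and 8.04-fold in Ifi44. Xaf1, a regulator of apoptosis inhibitors, had 1.81, 2.67 and 1.9 CPM in the B control, MYC and Her2 libraries, 1.46, 5.08 and 1.61 CPM in L and 1.45, 1.34 and 1.17 CPM in bi. It was highest in L MYC, then in B MYC.

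Ifi35 had 8.28, 13.6 and 10.2 CPM in the B control, MYC and Her2 libraries, 13.6, 19.3 and 10.4 CPM in L and 9.87, 18.3 and 6.86 CPM in bi. L MYC and bi MYC were almost level in Ifi35, as were B MYC and the L control. Helz2, a helicase and nuclear receptor coactivator, had 42.2, 31.4 and 48.2 CPM in the B control, MYC and Her2 libraries, 51.2, 78.7 and 84.5 CPM in L and 38.9, 45.7 and 40.5 CPM in bi. L Her2 and L MYC were its highest libraries and B MYC its lowest. Sp100, a component of nuclear bodies, had 3.45, 2.31 and 1.3 CPM in the B control, MYC and Her2 libraries, 0.793, 1.17 and 0.689 CPM in L and 0.8, 1.18 and 1.34 CPM in bi. Sp100 was the member with its highest level in the B control.

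Cxcl10, a chemokine that draws T cells, had 0.284, 0.183 and 0.268 CPM in the B control, MYC and Her2 libraries, 0.533, 4.85 and 0.865 CPM in L and 0.373, 0.69 and 0.515 CPM in bi. L MYC was far above the rest. Trim30a ranged from 0.0192 CPM in B Her2 to 1.67 in L MYC, with 16 or fewer reads in each library other than L MYC.

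Between the oncogene arms, the members were higher with MYC than with Her2. The comparison asks how the activated oncogenes differ, averaged across populations, which enter the model as blocks, with 3 libraries against 3, by edgeR's quasi-likelihood test and Benjamini-Hochberg adjustment over all 23834 genes. Of the 42 tested members 11 were higher with MYC and none lower at an adjusted p under 0.05, against 4.57% of all tested genes called in either direction and 2.44% called higher. The median log2 fold change was 1.33 over the members and 0.02 over all tested genes. The members called were Mx2, Ifit1 and Ifit3b among the effectors, Ifih1 and Zbp1 among the sensors, Stat2, Parp9, Parp14, Gbp3, Gbp7 and Rtp4.

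Gbp7 had the smallest p of these (log2 fold change 1.77, SE 0.29, adjusted p = 0.0119), followed by Parp14 (log2 fold change 1.61, SE 0.30, adjusted p = 0.0208). Mx2 had the widest difference (log2 fold change 3.24, SE 0.63, adjusted p = 0.024), from a mean of 2.47 CPM with MYC and 0.236 with Her2. Ifit1 (log2 fold change 2.78, SE 0.55, adjusted p = 0.0246) and Rtp4 (log2 fold change 2.75, SE 0.55, adjusted p = 0.0259) were nearly as wide. The groups did not overlap in any of these 5 genes. Zbp1 (log2 fold change 1.66, SE 0.33, adjusted p = 0.0248) and Ifih1 (log2 fold change 2.00, SE 0.45, adjusted p = 0.0397) were called although their groups overlapped, with MYC above Her2 within each population.

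The remaining calls were Ifit3b (log2 fold change 3.01, adjusted p = 0.0327), Parp9 (1.07, adjusted p = 0.0324), Stat2 (0.82, adjusted p = 0.0385) and Gbp3 (1.83, adjusted p = 0.0492), all from edgeR. By role, 3 of 13 tested effectors, 2 of 6 sensors, 2 of 5 GTPases, 2 of 3 genes of the PARP group, 1 of 4 transcription factors, 1 of 8 others and 0 of 3 genes of the ISG15 system passed. Isg15, Usp18 and Trim25 had adjusted p-values of 0.114, 0.127 and 0.323 with log2 fold changes of 1.59, 1.52 and 0.36. MYC was above Her2 in all 3 populations for 30 of the 42 members (20.5% of all tested genes), and all 3 MYC libraries exceeded all 3 Her2 libraries for 18 (6.58%).

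These calls rest on few libraries. Without the L MYC library 0 of the 42 members were called by edgeR, against 1.6% of all genes tested, with 19 members at an unadjusted p under 0.05, and the median log2 fold change was 0.71. Leaving out L Her2 also gave 0 calls by edgeR (1.16% of all genes), with 19 members at an unadjusted p under 0.05. Leaving out bi MYC gave 1 call (0.875% of all genes) and leaving out bi Her2 gave 1 (2.61%), so the share called over all genes was lower in these fits too. With all 9 libraries 32 members had an unadjusted p under 0.05, against 19.1% of all tested genes in either direction. DESeq2 called 24 members higher (7.92% of all genes called), and limma on log2(TPM + 1) called 0 (2.1%).

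**Figure D3:**
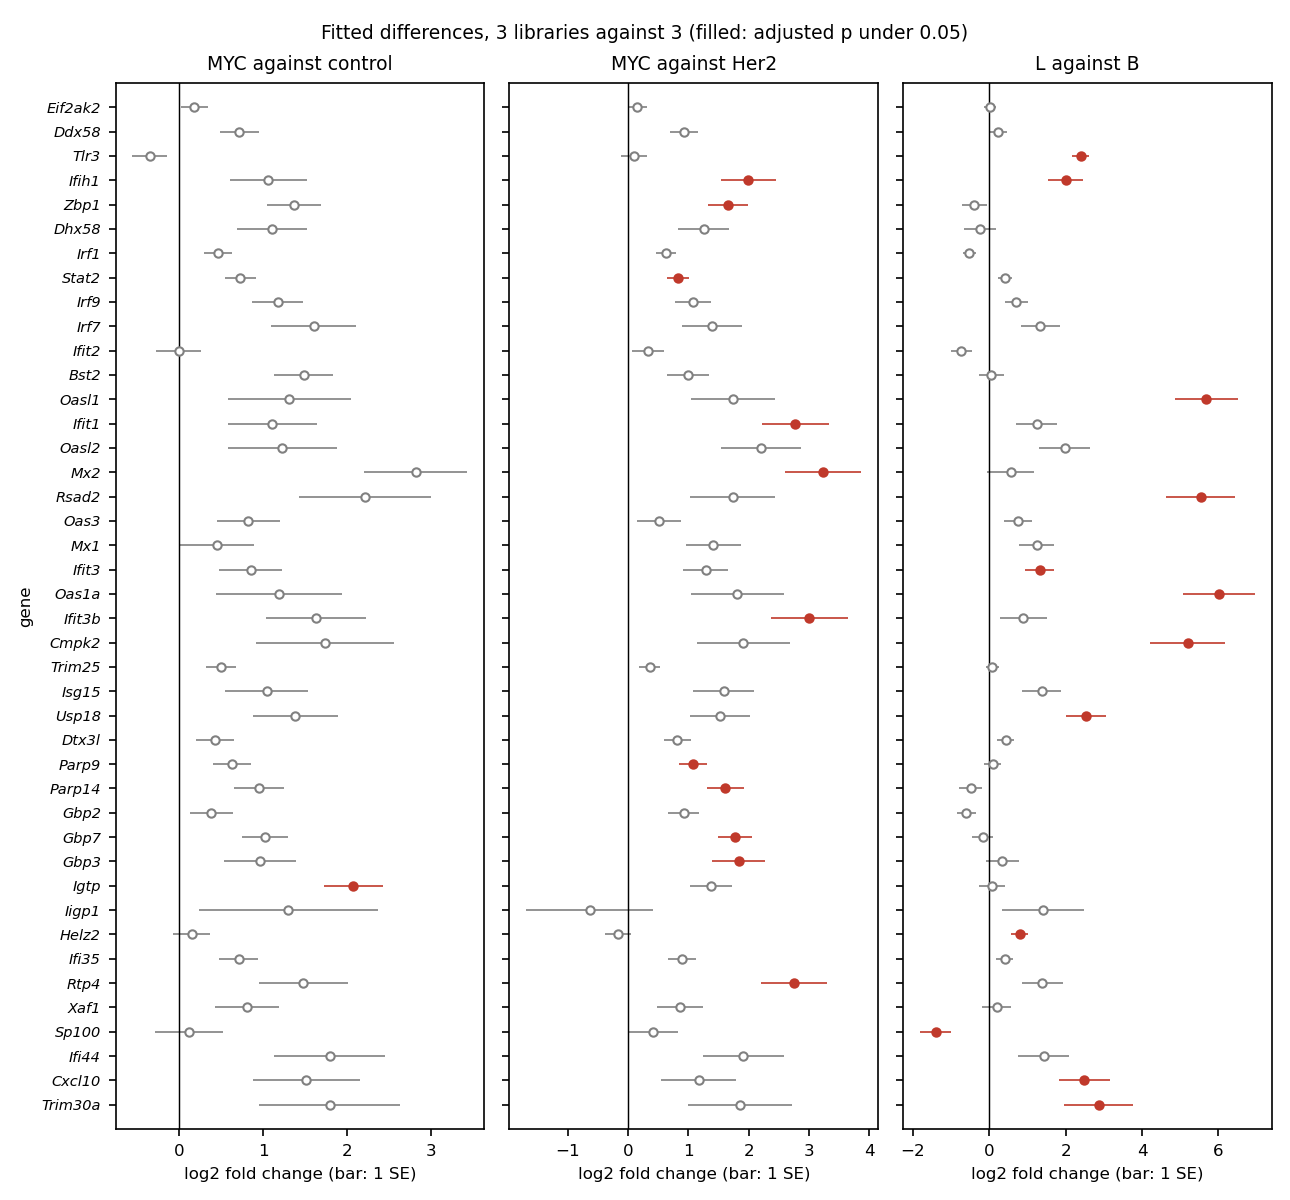
Log2 fold change (point) with 1 SE to each side (bar) of the 42 tested members for MYC against control, MYC against Her2 and L against B, each 3 libraries against 3, with red filled points where the adjusted p was under 0.05. In the first 2 panels nearly all points lie right of 0 with 1 and 11 filled, and in the third 12 are filled, of which Sp100 alone lies to the left.

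MYC against control asks the same of MYC and the control cells. The members lay mostly higher with MYC, and 1 passed the test. That gene was Igtp (log2 fold change 2.07, SE 0.35, adjusted p = 0.0484), with a mean of 3.95 CPM against 0.957 and no overlap between the groups. In this comparison 0.365% of all tested genes were called, and 0.101% were called higher. The median log2 fold change was 1.05 over the members and 0.03 over all tested genes, and 23 of the 42 had an unadjusted p under 0.05, all higher, where 13.9% of all tested genes had one in either direction. Without the L MYC library 9 members had one, and without the L control also 9. Mx2 (log2 fold change 2.81, SE 0.61, adjusted p = 0.0789), Bst2 (log2 fold change 1.48, SE 0.35, adjusted p = 0.092) and Zbp1 (log2 fold change 1.36, SE 0.33, adjusted p = 0.097) came next and did not pass. On the CPM scale the 3 MYC libraries exceeded all 3 controls for 12 members (7.36% of all tested genes). These were Mx2, Oas3, Ifi35, Ddx58, Dhx58, Irf1, Irf9, Stat2, Bst2, Parp9, Trim25 and Igtp. On the deposited TPM scale it held for Mx2, Dhx58, Stat2, Bst2, Trim25 and Igtp, but not for Oas3, Ifi35, Ddx58, Irf1, Irf9 and Parp9. Irf1, for example, had 21.7 TPM in bi MYC against 25.3 in the B control. The call of Igtp was lost without the L MYC library (log2 fold change 1.84, adjusted p = 0.164, within a range of 3.98e-06 to 0.399 over its 17 alternatives). It was also lost without the B control, L control, bi control, bi MYC or bi Her2 library, with RLE size factors, and with limma on log2(TPM + 1).

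Within single populations, where 1 library is set against 1 and no test is possible, the size of the MYC ratio differed. In L the median log2 ratio of MYC to control over the 42 members was 1.88, and 32 were at least 2-fold higher (7.65% of all tested genes). In bi the median was 0.64, and 14 were at least 2-fold higher (8.86%). In B the median was 0.24, with 2 at least 2-fold higher (4.43%), Igtp and Dhx58, and 4 at least 2-fold lower (11.7%). Of those 4, Oasl1 had 23 reads in the B control and 2 in B MYC, while Oas1a, Rsad2 and Cmpk2 had 3, 4 and 3 reads in the B control and 0 in B MYC. The medians over all tested genes were 0.04 in L, 0.06 in bi and -0.03 in B. The widest log2 ratios were those of Mx2 in L, 3.93, and in bi, 2.66, and in B that of Oasl1, -2.54, while the highest in B was 1.76 for Igtp. Whether the MYC ratio differs between populations was not tested.

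Set out by promoter motif, the 18 members with a response element core in their window had a median log2 ratio of L MYC to L control of 2.06, and 16 of them were at least 2-fold higher. The 15 members whose window held none had a median of 0.75, with 7 at least 2-fold higher. The 9 tested members without a window had a median of 2.03, and all 9 were at least 2-fold higher. Oasl2 and Cmpk2, whose windows hold no core, had log2 ratios of 2.91 and 3.16. Rsad2 and Ifit3b, which carry one, had 3.65 and 3.04. Ifih1, Ddx58 and Eif2ak2, whose core lies after the start, had 2.21, 1.29 and 0.14. These medians describe 1 pair of libraries, without a test.

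Her2 against control gave no member past the threshold in edgeR, where 0.021% of all tested genes were called. Of the 42 members 4 had an unadjusted p under 0.05, against 8.8% of all tested genes in either direction. All 4 were lower with Her2: Ifit1 (log2 fold change -1.67, SE 0.53, adjusted p = 0.315), Gbp7 (log2 fold change -0.75, SE 0.28, adjusted p = 0.437), Rtp4 (log2 fold change -1.28, SE 0.52, adjusted p = 0.502) and Parp14 (log2 fold change -0.67, SE 0.29, adjusted p = 0.555). DESeq2 called 1 member, lower (2.14% of all genes called), and limma on log2(TPM + 1) called 0 of all genes. The median log2 fold change was -0.25 over the members and -0.01 over all tested genes. All 3 Her2 libraries lay below all 3 controls for 7 members (3.54% of all tested genes): Mx1, Ifit1, Oasl2, Rtp4, Parp9, Dtx3l and Gbp3. In the other direction Iigp1 had a log2 ratio of 3.51 in bi, the widest of any Her2 ratio among the members. MYC against control, Her2 against control and MYC against Her2 share libraries, so they are not independent of each other.

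Between populations, L against B asks how the EpCAM-high, Sca-1-low cells differ from the EpCAM-low, Sca-1-high ones, as the average over the 3 arms. Of the 42 members 11 were higher in L and 1 lower, where 20.8% of all tested genes were called, 11.5% higher and 9.26% lower. Cmpk2 and Trim30a, both among those called higher, would not have passed the filter on low counts without their L libraries. Their calls therefore add no support for a difference. The median log2 fold change was 0.73 over the members and 0.04 over all genes tested. Tlr3 had the smallest p (log2 fold change 2.40, SE 0.22, adjusted p = 6.65e-05), and Oasl1 the next (log2 fold change 5.68, SE 0.83, adjusted p = 0.00112). On average Tlr3 was at 33.2 CPM in L and 6.4 CPM in B, and Oasl1 at 13.2 and 0.19 CPM. Neither gene's groups overlapped, and in both the call was kept in all 17 alternative settings.

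Oas1a, Rsad2 and Cmpk2 were called higher in L on very few reads in B. Oas1a had 421 reads in the 3 L libraries and 3 in the 3 B libraries, a ratio of 95.4 after scaling (95% counting interval 32.4 to 464). Cmpk2 had 251 reads against 3, a ratio of 56.9 (19.2 to 278). Rsad2 had 563 reads against 5 (log2 fold change 5.54, SE 0.91, adjusted p = 0.00215). Little or no RNA of these 3 genes was detectable in B at this depth. Their L reads lay mostly in L MYC, 323 for Oas1a, 201 for Cmpk2 and 450 for Rsad2.

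Usp18 (log2 fold change 2.54, SE 0.53, adjusted p = 0.00785), Ifih1 (log2 fold change 2.00, SE 0.47, adjusted p = 0.0138) and Cxcl10 (log2 fold change 2.49, SE 0.66, adjusted p = 0.0246) were called as well, without overlap. Helz2 (log2 fold change 0.80, SE 0.22, adjusted p = 0.028) rose by less. Ifit3 (log2 fold change 1.32, adjusted p = 0.0358) and Trim30a (2.87, adjusted p = 0.0499) were close to the edgeR threshold. Sp100 (log2 fold change -1.40, SE 0.41, adjusted p = 0.037) was the member called lower in L, with 0.883 CPM on average against 2.35. The groups did not overlap for 12 members higher in L (17.2% of all tested genes) and for 2 lower, Ifit2 and Sp100 (15%). Without L MYC 7 members were called (14.1% of all genes), and the median was 0.27. Without B MYC 7 were called (13.4%). Cxcl10, Helz2, Ifit3, Trim30a and Sp100 lost their call in each of these 2 fits, and the log2 fold change without L MYC was 1.5 for Cxcl10 and 1.43 for Trim30a.

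The bi population, high for both sort markers, differed from B in 5 of the 42 members. This was a share no higher than that of all tested genes, of which 13% were called, 7.88% higher and 5.11% lower. Tlr3 (log2 fold change 1.68, SE 0.21, adjusted p = 0.000917) and Oasl1 (log2 fold change 3.52, SE 0.79, adjusted p = 0.0177) were higher in bi. Gbp7 (log2 fold change -1.42, SE 0.28, adjusted p = 0.0102), Zbp1 (log2 fold change -1.55, SE 0.33, adjusted p = 0.0135) and Parp14 (log2 fold change -1.13, SE 0.30, adjusted p = 0.0335) were lower. The median log2 fold change was -0.14 over the members and 0.03 over all tested genes. Only the call of Tlr3 was kept in all 17 alternatives among these 5. Leaving out B Her2 left 2 members called (8.22% of all genes) and leaving out the B control gave 8 (13.2%). Without bi MYC there were 3 (7.92%), all higher, so that Gbp7, Zbp1 and Parp14 all lost their call. Without bi Her2 there were 3 (8.52%), and Zbp1 and Parp14 lost theirs. All bi libraries exceeded all B libraries for 7 members (14.5% of all tested genes), and lay below them for 3, Xaf1, Zbp1 and Gbp2 (10.7%).

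Against L, the bi population had no member past the threshold in edgeR, where 0.751% of all tested genes were called. The median log2 fold change was -0.92 over the members and 0.00 over all tested genes. An unadjusted p under 0.05 was found for 25 of the 42 members, all lower in bi, and for 8.65% of all tested genes. DESeq2 called 10 members, all lower (2.78% of all genes called). With limma on log2(TPM + 1) 0 members were called, and only 2 of all genes. Gbp7 (log2 fold change -1.25, SE 0.28, adjusted p = 0.104), Rsad2 (log2 fold change -2.57, SE 0.66, adjusted p = 0.152) and Usp18 (log2 fold change -1.83, SE 0.48, adjusted p = 0.167) had the smallest p. All bi libraries lay below all L libraries for 8 members (4.77% of all tested genes): Ifit3, Usp18, Oas1a, Cmpk2, Xaf1, Tlr3, Eif2ak2 and Helz2. Without L MYC the median was -0.47 and 9 members had an unadjusted p under 0.05.

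**Figure D4:**
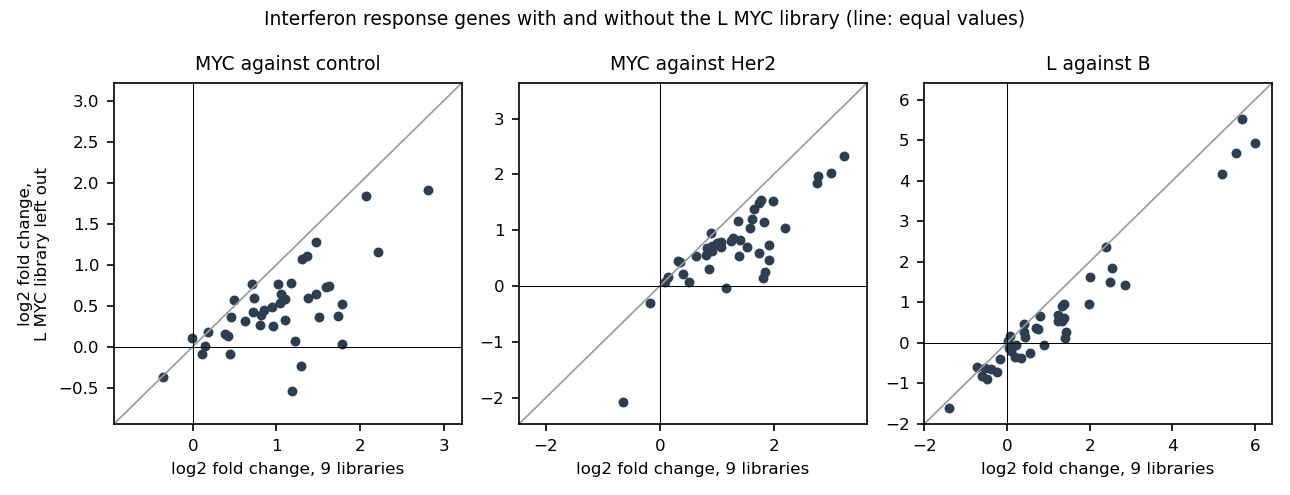
Log2 fold change of the 42 tested members with all 9 libraries (horizontal) and with the L MYC library left out (vertical), for 3 comparisons, with the grey line at equal values. Most points lie under the line right of 0, and the medians go from 1.05 to 0.43 for MYC against control, from 1.33 to 0.71 for MYC against Her2 and from 0.73 to 0.27 for L against B.

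The genes upstream of the members were read from fixed lists. Of 20 interferon genes, 11 had no read in any library, all 20 were under 1 CPM in every library, and the list held 196 reads in total. Ifnb1 had 2 reads in the L control and 2 in L MYC. Ifnk, expressed in keratinocytes, held 115 of the list's reads and was the 1 ligand tested. It was not called in any of the comparisons between arms. Ifnk had 21 reads in L MYC, 35 in the bi control, its highest library, and 2 to 16 in each of the other 7.

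Of the receptors and kinases, Ifnlr1, the lambda interferon receptor (log2 fold change 2.58, SE 0.30, adjusted p = 0.000283), was higher in L than in B, and Jak2 (-1.37, adjusted p = 0.000627 in edgeR) and Jak1 (-0.80, adjusted p = 0.0181) were lower. Of 13 tested adaptors of nucleic acid sensing 0 were called between MYC and Her2 or MYC and control in edgeR, and 2, Ifi204 and Tbk1, were lower in L than in B. Of 12 negative regulators and nucleic acid enzymes 0 were called between the arms, and Tnfaip3 (log2 fold change 1.39, SE 0.42, adjusted p = 0.0421) was higher in L than in B. Over all tested genes 11.5% were called higher and 9.26% lower in L than in B.

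A further list of 36 interferon-stimulated genes that are not members had 11 called higher and 0 lower with MYC than with Her2. Its median log2 fold change was 0.84, and 2.44% of all tested genes were called higher. Ifitm2 (log2 fold change 0.99, SE 0.18, adjusted p = 0.0185), Ifitm3 (log2 fold change 0.93, SE 0.17, adjusted p = 0.0203) and Uba7 (log2 fold change 1.53, SE 0.32, adjusted p = 0.0306) had the smallest p. Of these 36 genes 13 were highest in L MYC, against 34 of the 43 members and 15.2% of all tested genes. Between L and B the same list had 3 higher and 8 lower, where 11.5% of all tested genes were called higher and 9.26% lower. The list's median was -0.41 and the members' median 0.73, and the difference between the lists was not tested. Lgals3bp (log2 fold change -3.70, SE 0.55, adjusted p = 0.0012), Parp12 (log2 fold change -1.29, SE 0.18, adjusted p = 0.000886) and Samd9l (log2 fold change 3.07, SE 0.48, adjusted p = 0.00157) had the smallest p there. Of 16 targets of NF-kB, Icam1 was higher (log2 fold change 2.25, SE 0.33, adjusted p = 0.00857) and Cxcl2 (-1.97, adjusted p = 0.0272) and Traf1 (-1.66, adjusted p = 0.0347) lower with MYC than with Her2 in edgeR.

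Leukocyte genes were read beside the members because immune cells express many of them. The 13 markers summed to 9.25 to 12.8 CPM in the B libraries, 36.1 to 125 in L and 20.04 to 45.2 in bi, with the 125 CPM in L MYC. Of that sum 119 CPM was Cd14, which epithelial cells can also express. Without Cd14, a sum formed after its values were seen, the range was 3.20 to 9.23 CPM over the 9 libraries and 5.13 in L MYC. Most of the reads left without Cd14 were those of Cd68, with 96 to 486 reads per library and 273 in L MYC. Csf1r had 13 to 46 reads per library and Cd79a 2 to 35. Tyrobp had no read in any library, and Lyz2, Adgre1, Nkg7 and Laptm5 had 4 or fewer reads in each. Ptprc was at 0.876 CPM in L MYC, inside its range of 0.434 to 0.951 CPM over the others. Endothelial and fibroblast markers summed to 18.5 to 20.04 CPM in L, 82.8 to 134 in B and 24.9 to 41.1 in bi. The part of these markers in the members' levels beyond these values was not tested.

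Among themselves the members did not share 1 pattern. The Pearson correlation of each tested member with the mean of the others over the 9 libraries, a description of points that share libraries, ran from -0.06 for Ifit2 and -0.04 for Sp100 to 0.96 for Rtp4, Irf9 and Ifi44. Without L MYC it was highest for Rtp4 and Stat2 at 0.88, Ifi35 at 0.87 and Mx2 at 0.84. It was lowest for Iigp1 at -0.57, Helz2 at -0.11, Tlr3 at -0.07, Cxcl10 at -0.05 and Oas1a at -0.03. These are levels on the log2 CPM scale, over 9 and 8 libraries.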

How the data were processed

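RNA of 9 libraries was measured by stranded RNA sequencing after ribosomal RNA depletion, per the labels' protocols, although the molecule label reads polyA RNA. Per the file headers, the authors' deposited tables give each gene an estimated count of reads, a TPM value and lengths. They were made with Salmon 0.9.1 and mm10, per the submitters' processing notes. The annotation release is not given in the sources used here. Symbols were joined by Ensembl identifier, 53544 with its version and 563 without, and 174 had none.

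Here the counts were rounded, and edgeR 4.0.16 under R 4.3.3 served for filtering (filterByExpr on arm, a count of at least 10 and a total of at least 15) and TMM scaling. An additive quasi-likelihood model of population and arm was fitted to all 9 libraries, with 4 residual degrees of freedom, so its residual holds the interaction of both together with library noise. A gene was called where its p, adjusted after Benjamini and Hochberg, was under 0.05, in each of 6 comparisons. An SE is the log2 fold change divided by the square root of F. Log2 ratios of single libraries use a prior count of 2 and have no test. Folds against 1 to 3 reads are given as ratios with exact 95% intervals, which cover counting error only. Values in every library are given for members with a mean of at least 1 CPM and for members called in a comparison, and others by range. Of lists, up to 3 called genes by smallest p were named. Some genes that these rules select are not reported here.

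Alternatives were RLE size factors, no filter, DESeq2 1.42.0, limma 3.58.1 on log2 of deposited TPM with a pseudocount of 1, fits on the 2 groups compared, a prior count of 0.5, a minimum of 1 CPM, and leaving out each library, population or arm. Data were simulated for all 23834 genes from each gene's mean level, with no difference in level between libraries other than the change added. The changed genes were drawn only from genes above a set mean level, which many members do not reach. There the test found 34% of genes changed 2-fold and 98% changed 4-fold for MYC against Her2, with 14 false among 146 calls. For L against B these were 33% and 98%, with 15 false among 146. The rates do not carry over to members with few reads, or to a change in 1 library such as L MYC. Members and lists were chosen with earlier results of these data known. Promoter windows were read from RefSeq and gene coordinates from GENCODE M21, both on GRCm38. Shared 31-base words were counted in the GENCODE M21 transcripts.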

Additional observations from a re-analysis of the deposited data

Results flagged for a closer look

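Oasl1 is given here because its MYC ratios within single populations pointed in opposite directions by at least 2-fold each way, with at least 10 reads in 1 of the libraries of each pair. The minimum of 10 reads was added after the values were seen, and it leaves out members with fewer reads. Its log2 ratio of MYC to control was -2.54 in B cells, against 2.31 in L and 2.10 in bi. The B ratio rests on 23 reads in the control and 2 in MYC, the L ratio on 394 and 2014 reads, and the bi ratio on 159 and 374. Each population has 1 library of each arm, and the difference was not tested.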

How the results depend on the processing

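Over the 489 values of members that passed a test, recomputed under each alternative, 324 stayed past the threshold in the same direction, 165 no longer passed it and 0 changed direction. Of 126 recomputed counts of called members and medians, 81 stayed close to the value reported. The cause of the changes was not tested.

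Shares in brackets are those called over all genes in the same fit. With RLE size factors 0 members were called for MYC against control (0.227%). Without a filter the counts were 6 for MYC against control (2.38%), 1 for Her2 against control (1.56%) and 21 for MYC against Her2 (5.26%). They were 9 for bi against B (9.56%) and 11 for bi against L (1.76%). DESeq2 gave 9, 1, 24, 9 and 10 in that order (4.05%, 2.14%, 7.92%, 15.3% and 2.78%). limma on log2(TPM + 1) gave 0 for MYC against control (2.18%) and 0 for MYC against Her2 (2.1%). It gave 4 for L against B (16.9%) and 1 for bi against B (9.28%). Fits on the 2 groups compared gave 2 for MYC against control (3.07%) and 2 for bi against L (1.07%). Leaving out 1 library at a time gave 0 to 2 for MYC against control (0.0249% to 1.98%) and 0 for Her2 against control (0% to 0.374%). It gave 0 to 13 for MYC against Her2 (0.875% to 6.07%) and 7 to 15 for L against B (13.4% to 22.3%). For bi against B it gave 2 to 8 (7.6% to 13.7%) and for bi against L 0 to 1 (0.139% to 0.969%).

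Without the B population 7 members were called for MYC against control (3.45% of all genes). Without L the counts were 0 for MYC against control (0.152%) and 0 for MYC against Her2 (1.14%). Without bi they were 0 (0.0341%) and 1 (1.84%). Without the MYC arm 5 were called for L against B (12.3%). Without the Her2 arm 7 were called for L against B (17.4%) and 2 for bi against B (9.93%). The median log2 fold change of bi against B ran from -0.38 to 0.063 with 1 library left out, and was positive without the B Her2 library. On log2(deposited TPM + 1), a pseudocount that understates changes of low genes, the median log2 ratio of MYC to control was 1.05 in L and 0.16 in bi. Arms were compared within populations, and populations within arms, in every fit on all 9 libraries, since both are terms of the model. A count of 0 allows up to 3 reads.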

Other observations

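Among 14273 genes outside the 43 with a symbol and a mean of at least 1 CPM, those whose log2 CPM over the 9 libraries was most like the members' mean level, by Pearson's r, included Wnt5b (0.97), Bcl9 (0.97), Tcf7l1 (0.95), AW011738 (0.94), Dclk2 (0.93), Trim21 (0.93), Mboat2 (0.92), Mex3a (0.91) and Muc1 (0.90). Trim21, an antibody receptor and ubiquitin ligase, is known as interferon-stimulated. Wnt5b, a secreted Wnt ligand, had 0.657, 0.663 and 0.307 CPM in the B control, MYC and Her2 libraries, 1.07, 12.1 and 0.586 CPM in L and 0.587, 1.5 and 0.172 CPM in bi. Tcf7l1, a transcription factor of the Wnt pathway, had 4.71, 6.35 and 4.03 CPM in the B control, MYC and Her2 libraries, 7.41, 21.3 and 6.27 CPM in L and 5.3, 9.48 and 4.68 CPM in bi. L MYC was the highest library in each of these 9 genes. Without L MYC the r was 0.98 for Mboat2, 0.89 for Wnt5b and 0.88 for AW011738. These values describe 9 libraries and carry no test, and likeness of level says nothing of shared control.

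The mean of the members' standardised levels, in SD units of each gene over the 9 libraries, was 1.75 in L MYC, 0.19 in bi MYC, 0.18 in B MYC and 0.02 in the L control. It was -0.21 in L Her2, -0.24 in the B control, -0.44 in the bi control, -0.49 in B Her2 and -0.77 in bi Her2. In each population the MYC library was the highest and the Her2 library the lowest. Ly6a, the interferon-inducible gene of the sort marker Sca-1, had the same order in each population: 112 CPM in B MYC, 57.8 in the B control and 19.5 in B Her2, then 12.8, 6.53 and 2.37 CPM in L and 139 CPM, 18.4 and 15.9 in bi. Cells were sorted on Sca-1, so its levels cannot be told apart from the gates.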
